A study of Rattus norvegicus with 12 samples.

Results

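Cadherins and protocadherins were described in hippocampal cultures of the rat after 48 h of picrotoxin. Members were chosen by name alone: the genes of the authors' polyA differential table whose symbol starts with Cdh and a digit or with Pcdh, or is Celsr1, Celsr2 or Celsr3. Of 26404 genes 80 matched, and 71 of these had a mean of 10 or more over the 6 polyA libraries and were kept. The 9 left out for low values were Cdh1, Cdh3, Cdh5, Cdh16, Cdh17, Cdh19, Cdh26, Pcdh12 and Pcdhb1. Cdh17 was the nearest below the limit, at a mean of 4.35, and Pcdha1 the nearest above it, at 13.4. Cdh5, the cadherin of blood vessel walls, was at 0 in every library.

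The cells were primary neurons of Sprague-Dawley rats, taken from the hippocampus at embryonic day 18 and grown as neuron-enriched cultures. Control cultures received vehicle and the others picrotoxin, a blocker of the chloride channel of GABA-A receptors that raises network activity. Both were added at 18 days in vitro and RNA was taken at 20. Each arm has 3 polyA libraries, numbered 3, 10 and 20 in the labels. Libraries with the same number are called a culture below; what the numbers stand for is not stated. The series also holds small RNA libraries, which do not measure these genes.

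Cadherins are calcium-dependent adhesion proteins of the cell surface. Classical cadherins of types I and II bind partners on the neighbouring cell and hold them through catenins, which link the cadherin tail to actin. Type II cadherins are expressed in combinations that differ between kinds of neuron, and several take part in the choice of synaptic partners. Protocadherins have other tails. The clustered ones are encoded in the alpha, beta and gamma arrays, where each neuron switches on a few promoters, and in the alpha and gamma arrays each variable exon is spliced to constant exons that all isoforms of the array share. The delta protocadherins lie outside the arrays, and the flamingo cadherins Celsr1 to Celsr3 are large receptors of planar polarity and axon guidance.

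The promoters of the clustered genes show what these isoforms share in sequence. RefSeq start sites of the GRCr8 build, from 250 bases before to 50 bases after each start, were found for 50 of the 71 members. Pcdha4 was the sole alpha gene among them, so the alpha array was hardly searched. Pcdhb11, Pcdhb13, Pcdhb17, Pcdhb22 and Pcdhgb7 also had no entry. Outside the clusters Cdh2, Cdh4, Cdh9, Cdh11, Cdh13, Celsr1 and Pcdh19 had none. Clustered promoters are known to hold a conserved element with a CGCT core, near sites of the insulator protein CTCF, and the letters most often shared were looked for. The 12 letters GGTGGCGCTGCA, in capitals below, stood in 10 of 28 clustered entries, all of them beta genes, and in 14 of 33469 promoters of all genes (0.0418%). Of the 4 others, Pcdhb6 and Pcdhb16 are also beta protocadherins, and Dnajb2 and C11h3orf70 are not. The letters were picked from these promoters, so the count is a description. Windows of 30 bases from 4 of the 10 are shown, each on the plus strand and named with its gene:
Pcdhb5 (chr18:29302405-29302434): tgaacgcagGGTGGCGCTGCAggctaagat
Pcdhb9 (chr18:29379249-29379278): aagacacagGGTGGCGCTGCAggctaagat
Pcdhb4 (chr18:29292212-29292241): aggacgcttGGTGGCGCTGCAggctaagcg
Pcdhb19 (chr18:29478765-29478794): aagacacatGGTGGCGCTGCAggataatgt
The median log2 fold change was -0.24 over the 10 genes with these letters and -0.20 over the 17 other clustered members with an entry. The 10 are all beta genes and the 17 are mostly gamma genes, so letters and array cannot be told apart here. Over all beta and all gamma members the medians were -0.22 and -0.20.

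Sites of factors that act in stimulated neurons were searched in the same windows on both strands. The cyclic AMP response element TGACGTCA was in 0 of 51 member entries and in 1.83% of all promoters, and its shorter form TGACG was in 9 of 51, among them Cdh8, Cdh10 and Pcdh10, against 21.2% of all. The AP-1 letters TGANTCA were in Cdh20 and Pcdhga4 (7.33% of all promoters), the Egr letters GCGGGGGCG in Cdh24 (2.73%), and the E-box CACGTG in Cdh15 (6.42%). Cdh9 and Cdh11, which also changed with picrotoxin, had no entry and were not searched. Cdh20 and Cdh24 are shown because both changed with picrotoxin; capitals mark the letters searched, and the Cdh24 window is on the minus strand:
Cdh20 (chr13:21515017-21515046): taactgcTGACTCAttgagcagaaaacaca
Cdh24 (chr15:32071398-32071427): cccgggagccGCGGGGGCGgggactggctg
These matches describe letters only and say nothing of binding.

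Values below are scaled fragment counts: fragments per gene divided by a size factor of the library, with no length scaling, so they compare libraries for 1 gene but not genes with each other. Totals lay between 12304776 and 12982866 per library. Markers of the cell types were summed for each library, to compare libraries and not cell types. The summed level of 8 neuron markers was 93935 to 102772 in controls and 80189 to 86856 with picrotoxin. For 7 markers of excitatory neurons it was 26679 to 28454 and 17443 to 22237, for 8 of inhibitory neurons 14782 to 21545 and 18251 to 29195, and for 8 of astrocytes 4214 to 6002 and 3447 to 5380. The 8 microglial markers summed to at most 8.75, with Itgam at 0. Of 7 fibroblast and meningeal markers Col1a1, Col1a2, Col3a1 and Pdgfrb had means under 10, and the sum was 1194 to 2028 and 1400 to 2165. Most of it came from Dcn (means of 920.5 in controls and 1039.3 with picrotoxin) and Lum (594 and 753.8). The 7 endothelial markers summed to at most 78.5 and the 5 of choroid plexus to at most 29.2; Sox10 was at 0 among 9 oligodendrocyte markers, whose sum was 348 to 506.

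Levels between genes were compared per transcript length, with the FPKM that the authors' deposited table gives for each arm. Cdh13, the cadherin anchored to the membrane by a lipid in place of a tail, had the highest level of the 71, 170.0 in controls and 219.5 with picrotoxin. It was followed in the authors' deposited table by Pcdh11x (78.5 and 99.4), N-cadherin Cdh2 (80.9 and 79.5), Cdh8 (61.3 and 71.4) and Pcdh1 (65.5 and 58.9). Pcdhac1 was the highest clustered member (59.7 and 56.3), and its locus there includes exons shared by the whole alpha array. The lowest was Cdh23, a tip-link cadherin of hair cells, at 0.24 and 0.29 in the authors' deposited table.

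**Figure D1:**
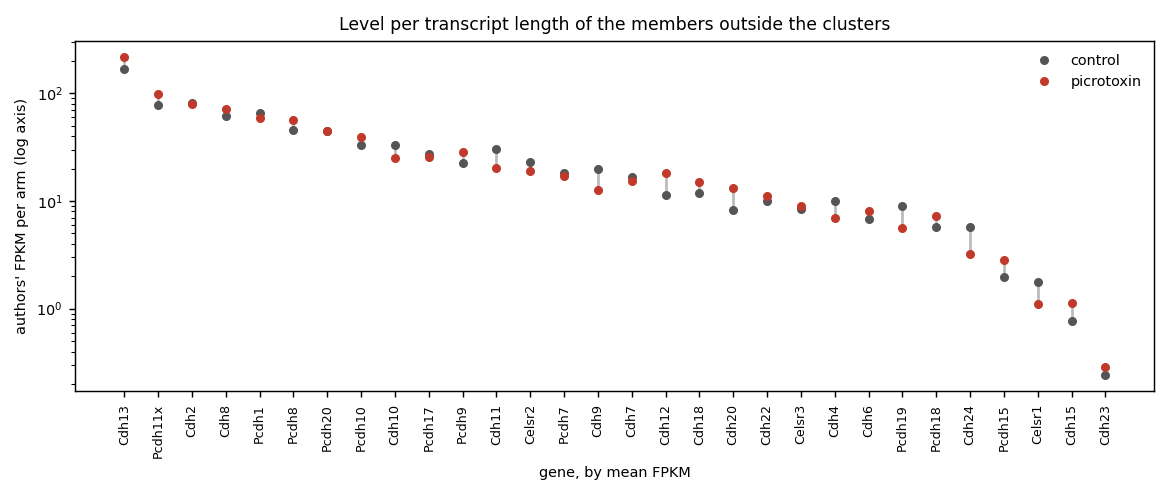
The authors' FPKM per arm (log axis) for the 30 members outside the clusters, ordered by their mean; grey points are control, red points picrotoxin. Cdh13 stands highest, at 170.0 and 219.5, and Cdh23 lowest, at 0.24 and 0.29.

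The comparison of picrotoxin with control asked which adhesion genes respond to 48 h of raised network activity. With limma on log2(value + 1) and Benjamini-Hochberg adjustment over 12605 genes, 2 members rose, 3 fell and 66 did not pass the threshold of 0.05. Over all genes tested 3.25% passed, 1.67% upward and 1.58% downward. All 5 are type II cadherins, a class with 11 members: Cdh12 and Cdh20 rose, and Cdh9, Cdh11 and Cdh24 fell. The median log2 fold change was -0.17 over the 71 members and -0.01 over all genes tested, and 48 of 71 members were below 0, against 51.4% of all genes. This mixes 2 parts. Of the 41 clustered protocadherins 34 were below 0, with a median of -0.24. Of the 30 members outside the clusters 14 were below 0, with a median of 0.11, or -0.10 without picrotoxin culture 20. The median of all 71 was -0.08 without picrotoxin culture 10 and -0.09 without control culture 20. Single libraries weighed on the count: without control culture 10 no member passed (0 rose, 0 fell), without control culture 20 it was 0 and 1, without picrotoxin culture 3 it was 0 and 2, without picrotoxin culture 10 it was 1 and 2, and without picrotoxin culture 20 it was 3 and 10.

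The same-numbered libraries deviated together, and with culture as a block 9 members rose and 12 fell, where 19.5% of all genes passed (9.45% upward, 10.1% downward). By class, these were 4 rises and 4 falls among 11 type II cadherins, 9 rises and 8 falls among all 30 members outside the clusters, and 0 rises and 4 falls among 41 clustered protocadherins. The 3 picrotoxin values lay wholly above the 3 control values for 5 members and wholly below for 18, against 11.5% and 11.6% of all genes (23.2% either way). The authors' deposited table calls 11 members significant, and 7.51% of the genes it tested. Besides the members called in limma without the block, these are Cdh4, Cdh10, Cdh13, Celsr1, Pcdh19 and Pcdhb22. P-values measure the spread between 3 libraries per arm, which the series calls biological replicates.

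Cdh11, a type II cadherin also abundant in mesenchymal tissues, fell. Control cultures 3, 10 and 20 gave scaled counts of 2047, 2052 and 1898, and the picrotoxin libraries gave 1463, 1277 and 1252. Every picrotoxin library was below every control library, and the means differed 1.502-fold (1999 ± 87.5 and 1331 ± 115, SD, n = 3). The log2 fold change was -0.59 (SE 0.09, limma adjusted p = 0.0117). In bulk RNA fewer cells of a type and less RNA per cell cannot be told apart.

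Cdh9, which acts at the synapses of mossy fibres on CA3 neurons, was at 787, 704 and 653 in controls and at 534, 444 and 374 with picrotoxin. The groups did not overlap, and within each arm culture 3 was highest and culture 20 lowest. The log2 fold change was -0.67 (SE 0.14, limma adjusted p = 0.0297). Cdh24 was at 155, 156 and 180.2 in controls and at 86.5, 95.02 and 92.1 with picrotoxin. All 3 picrotoxin values lay close together and under the controls, with a mean 1.79-fold lower (log2 fold change -0.83, SE 0.14, limma adjusted p = 0.0155). This was the largest fall of the 71 members.

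Of 7 excitatory markers Camk2a fell, with a log2 fold change of -1.04 (limma adjusted p = 0.00221), and Slc17a6 rose by 0.63 (limma adjusted p = 0.0261). The other 5 did not pass. With the block 2 of these 7 rose and 4 fell, among them Neurod6 (-0.79, limma adjusted p = 0.00317 with the block) and Nrgn (-0.57, 0.00281). Of 8 neuron markers Tubb3 fell, by 0.53 on the log2 scale (limma adjusted p = 0.0157), all 8 were below 0, and 5 fell with the block. Of 7 astrocyte markers tested, 0 passed in limma (0 also at an unadjusted p under 0.05), all 7 were below 0 with a median of -0.34, and 4 fell with the block. With the block 10.1% of all genes fell and 9.45% rose. The part of these marker shifts in the falls of Cdh9, Cdh11 and Cdh24 was not tested. Leaving out control culture 10 took the limma adjusted p to 0.0746 for Cdh11, 0.0746 for Cdh24 and 0.125 for Cdh9. That of Cdh24 was also above 0.05 without control culture 20 (0.0595) and without picrotoxin culture 3 (0.0633), and that of Cdh9 without control culture 3 (0.108), control culture 20 (0.0533) and picrotoxin culture 10 (0.0865).

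Cdh12, a brain type II cadherin, rose. Control cultures 3, 10 and 20 gave scaled counts of 341, 335 and 317, and the picrotoxin libraries gave 583, 462 and 554. The control libraries differed little, and all picrotoxin libraries were above them. The mean went from 331 ± 12.5 to 533 ± 63.6 (SD, n = 3), 1.61-fold (log2 fold change 0.68, SE 0.11, limma adjusted p = 0.0155). Cdh20 was at 270.5, 253 and 222 in controls and at 382, 408 and 388 with picrotoxin. Again no libraries overlapped (log2 fold change 0.66, SE 0.11, limma adjusted p = 0.0160).

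Both rises lost the threshold when a library was left out. The limma adjusted p of Cdh12 was 0.0774 without control culture 10, 0.0523 without control culture 20 and 0.0680 without picrotoxin culture 3. That of Cdh20 was 0.0797, 0.0543 and 0.0593 without the same libraries and 0.0608 without picrotoxin culture 10. The summed inhibitory markers were 1.26-fold higher with picrotoxin. Of 7 tested 0 passed the threshold, and 4 did with the block (57.1%, against 19.5% of all genes). The part of these markers in the 2 rises was not tested. Of the 7 markers 6 had log2 fold changes above 0, but that of Slc32a1 was only 0.000558. Lhx6 was at -0.03.

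**Figure D2:**
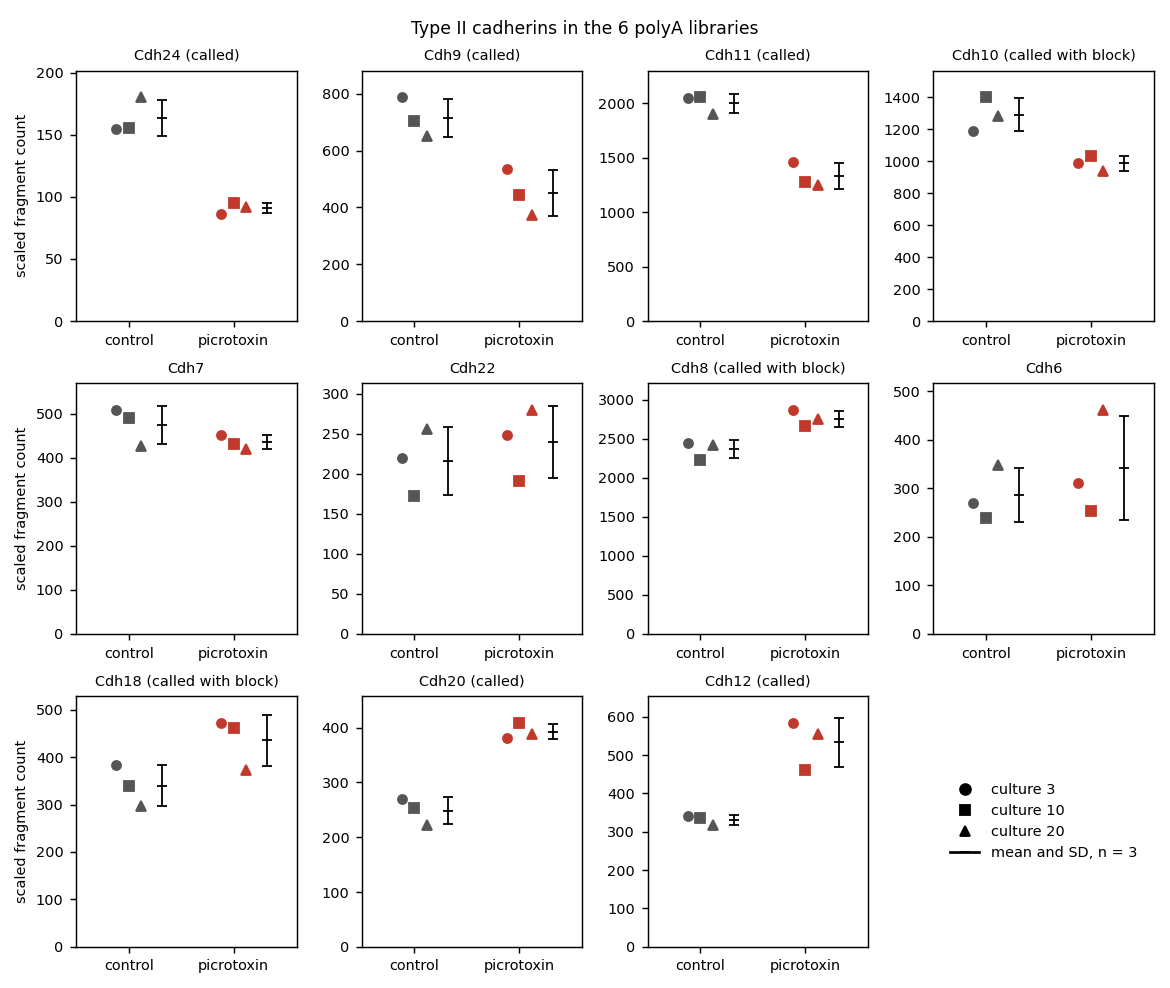
Scaled fragment counts (y axis from 0) of the 11 type II cadherins in each polyA library, control in grey and picrotoxin in red, symbols by culture; bars give mean and SD, n = 3. Cdh24, Cdh9 and Cdh11 lie lower with picrotoxin and Cdh20 and Cdh12 higher, with no overlap between the arms.

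The other 6 type II cadherins did not pass without the block. Cdh10, a close relative of Cdh9, was at 1191, 1399 and 1281 in controls and at 986, 1035 and 939 with picrotoxin. Its arms did not overlap (log2 fold change -0.38, limma adjusted p = 0.0566, and 0.000433 with the block). Cdh8 was at 2445, 2235 and 2416 against 2865, 2660 and 2748, also without overlap and 1.17-fold higher (limma adjusted p = 0.168, and 0.0139 with the block). Cdh18 was higher in each of the 3 cultures but overlapped between arms, with a log2 fold change of 0.36 (limma adjusted p = 0.198, and 0.00485 with the block).

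Cdh6, Cdh7 and Cdh22 passed in neither fit. Their log2 fold changes were 0.23 (95% interval -0.25 to 0.71), -0.12 (-0.36 to 0.11) and 0.15 (-0.26 to 0.56), and those of Cdh6 without picrotoxin culture 20 and of Cdh22 without control culture 10 were just below 0 (-0.00494 and -0.00404). The deposited locus of Cdh22 overlaps Elmo2, with a mean of 1940 against 228 for Cdh22, and the sources do not say whether counting used strand, so its value is uncertain.

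Several type II genes share a chromosome in the authors' table, whose build is not stated. On chromosome 2, Cdh6 (from 81528703), Cdh9 (86724080 to 86810246), Cdh10 (89140757 to 89362817), Cdh12 (91863899 to 92268636) and Cdh18 (from 94093006) follow each other. Of these 5, Cdh9 fell and Cdh12 rose, so the run of genes holds calls in both directions. On chromosome 13, Cdh20 (30018337 to 30085298) rose and Cdh7 (from 36230291) did not pass. Cdh11 lies on chromosome 19 (2374107 to 2531571) beside Cdh8 (from 6024413), and Cdh24 on chromosome 15 (37163507 to 37170574).

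Of the 3 type I cadherins none passed without the block, and 2 had an unadjusted p under 0.05. Cdh2, the main classical cadherin of central synapses, was at 3924, 3904 and 4572 in controls and at 3790, 3826 and 4569 with picrotoxin. The libraries of 1 culture were nearly alike in both arms, and the log2 fold change was -0.03 (95% interval -0.25 to 0.20). Its sign changed with the scaling: it was 0.03 after quantile scaling and 0.00285 after scaling by library totals. Cdh4, or R-cadherin, was at 293, 293 and 357 against 205, 207 and 246. All picrotoxin values were below the controls (log2 fold change -0.52, limma adjusted p = 0.0656, and 0.000605 with the block). Cdh15, first known from muscle, was low, at 25.6 ± 2.48 and 37.4 ± 0.40 (SD, n = 3), with no overlap and a limma adjusted p of 0.219.

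Cdh13 was higher with picrotoxin in each culture: 5793, 6411 and 7661 in controls and 7267, 7859 and 10553 with the drug. The arms overlapped, because control culture 20 was above picrotoxin culture 3. The log2 fold change was 0.36 (limma adjusted p = 0.225, and 0.000301 with the block), and the authors' deposited table calls it significant at a q of 0.0186. Without picrotoxin culture 20 the log2 fold change was 0.20. Cdh23 and its hair cell partner Pcdh15 passed in neither fit. Pcdh15 was at 91.5, 64.7 and 111 in controls and at 88.5, 75.2 and 221 with picrotoxin, so that its mean rested on picrotoxin culture 20: the log2 fold change was 0.38 with that library and -0.09 without it.

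The delta-1 protocadherins, whose tails bind protein phosphatase 1, held 0 calls among 4 and 1 unadjusted p under 0.05 in limma. Pcdh9 was at 845, 841 and 900 in controls and at 1101, 988 and 1244 with picrotoxin. No libraries overlapped (log2 fold change 0.36, SE 0.10, limma adjusted p = 0.0931, and 0.00109 with the block). Pcdh11x was at 3251, 2439 and 3128 against 3964, 2669 and 4538. It was higher in each culture, while culture 10 was lowest in both arms (log2 fold change 0.32, limma adjusted p = 0.427, and 0.00362 with the block). Its value was 0.16 without picrotoxin culture 20, 0.19 without control culture 10 and 0.54 without picrotoxin culture 10. Pcdh1 and Pcdh7 passed in neither fit, at log2 fold changes of -0.15 (95% interval -0.35 to 0.05) and -0.09 (-0.46 to 0.28), the latter 0.08 without picrotoxin culture 10.

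The delta-2 protocadherins, several of which bind the WAVE complex that drives actin branching, also held 0 calls among 5, with 1 unadjusted p under 0.05. Pcdh19, an X-linked gene whose loss causes epilepsy and whose protein associates with N-cadherin, was at 447, 447 and 504 in controls and at 290, 201 and 385 with picrotoxin. All 3 picrotoxin values were lower, but they spread widely (log2 fold change -0.72, SE 0.20, limma adjusted p = 0.0867, and 0.000790 with the block). Leaving out 1 library gave log2 fold changes from -0.95 to -0.48, the latter without picrotoxin culture 10; the limma adjusted p was 0.00395 without picrotoxin culture 20 and 0.164 to 0.244 without any of the other 5 libraries. Pcdh10 and Pcdh18 were higher in each culture and passed with the block, at log2 fold changes of 0.23 (adjusted p = 0.0358 with the limma block) and 0.35 (0.00504). Both leaned on picrotoxin culture 20, without which they were 0.08 and 0.19; Pcdh10 was 0.37 without picrotoxin culture 10 and Pcdh18 0.23 without control culture 10.

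Pcdh8, or arcadlin, an activity-induced protein that draws N-cadherin into the cell, was at 1916, 1556 and 1920 in controls and at 1833, 2018 and 2838 with picrotoxin. It was higher in 2 of 3 cultures, and the arms overlapped (log2 fold change 0.29, 95% interval -0.06 to 0.64, limma adjusted p = 0.388, and 0.0646 with the block). Pcdh17, which acts at presynaptic terminals, was at 1647, 1448 and 1751 against 1496, 1181 and 1885, and Pcdh20 had a log2 fold change of -0.02 (95% interval -0.28 to 0.23). Neither passed, and the sign was not stable: Pcdh17 was at 0.06 without picrotoxin culture 10 and Pcdh20 at 0.00468 after scaling by library totals.

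Among the flamingo cadherins none of 3 passed without the block, and 2 had an unadjusted p under 0.05. Celsr1 was at 86.6, 119 and 101 in controls and at 66.1, 68.9 and 55.4 with picrotoxin. Its arms did not overlap (log2 fold change -0.67, SE 0.18, limma adjusted p = 0.0794, and 0.00443 with the block). Celsr2 was at 2441, 2637 and 2966 against 2125, 2048 and 2442. It was lower in each culture, with control culture 3 just under picrotoxin culture 20 (log2 fold change -0.28, limma adjusted p = 0.176, and 0.00317 with the block). Celsr3, needed for axon tracts, was at 1230.1, 1204 and 1457 against 1175, 1227 and 1729, with a log2 fold change of 0.07 (95% interval -0.26 to 0.40) that was -0.11 without picrotoxin culture 20.

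**Figure D3:**
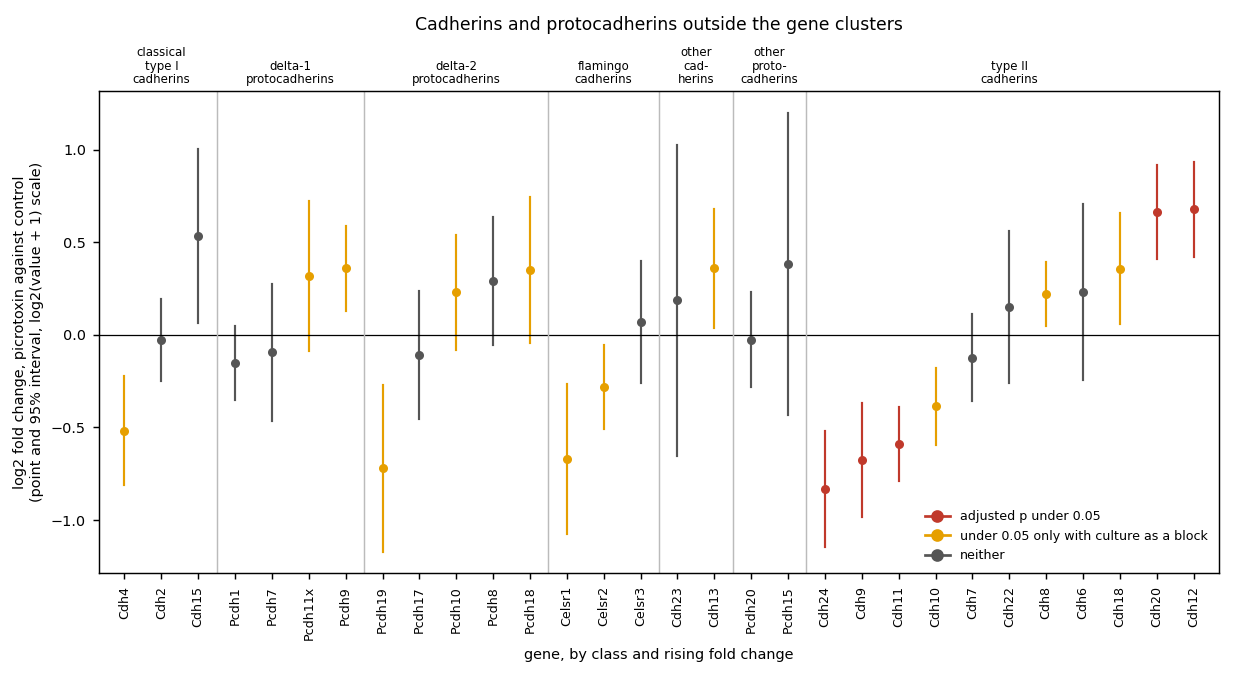
Log2 fold change of picrotoxin against control (points) with its 95% interval (lines) for the 30 members outside the clusters, by class; red marks an adjusted p under 0.05, orange a gene past it only with culture as a block. All 5 red genes are type II cadherins, 3 below 0 and 2 above.

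The 41 clustered protocadherins held 0 calls, and most had a value below 0. Without the block 5 had an unadjusted p under 0.05 in limma, against 17.5% of all genes. With it 0 rose and 4 fell: Pcdha2, Pcdha8, Pcdha9 and Pcdhb22. Over all genes 9.45% rose and 10.1% fell with the block. The log2 fold change was below 0 in 34 of 41, with a median of -0.24, and the lowest was -0.63 and the highest 0.22. The counts below 0 were 10 of 10 in the alpha, 14 of 18 in the beta and 10 of 13 in the gamma array, with medians of -0.25, -0.22 and -0.20. Between 33 and 37 of 41 were below 0 under median-ratio, quantile and library total scaling, and the median was -0.12 without picrotoxin culture 10. Without that library the beta and gamma medians were -0.08 and -0.06, the gamma median was -0.09 without control culture 20 and -0.31 without picrotoxin culture 20, and 9 of 10 alpha genes were below 0 without picrotoxin culture 20. The members of an array share exons or close sequence, so they are not independent of each other. All 8 neuron markers were below 0 too (median -0.27), as were all 7 astrocyte markers tested (-0.34). Of 7 excitatory markers 4 were below 0 (median -0.25), and of 7 inhibitory markers 1 was (0.38). The part of these marker shifts in the clustered values was not tested.

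In the alpha array Pcdha2 was at 183, 165 and 166 in controls and at 140.0, 124 and 134 with picrotoxin, with no overlap (log2 fold change -0.37, limma adjusted p = 0.173, and 0.0314 with the block). Pcdha8 was at 219, 279 and 380.3 against 166, 179 and 211, and Pcdha9 at 238, 206 and 308 against 133, 169 and 185. Both were lower in every picrotoxin library (limma adjusted p = 0.116 and 0.101, and 0.000330 and 0.000943 with the block). The authors' table gives Pcdha8, Pcdha9 and Pcdhac1 the same locus (chromosome 18, 29696539 to 29924444), so fragments could be split among them and all 3 values are uncertain. Pcdhac1 itself was at 4089, 4036 and 4162 against 3929, 3618 and 4039.8, with a log2 fold change of -0.09 (95% interval -0.25 to 0.08).

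In the beta array, whose genes are mostly a lone exon, Pcdhb22 was at 221, 175 and 183 in controls and at 145, 101 and 143 with picrotoxin. Every picrotoxin value was lower, and the log2 fold change was -0.58 (SE 0.17, limma adjusted p = 0.108, and 0.00189 with the block). The authors' deposited table calls Pcdhb22 significant, at a q of 0.01995, as the sole clustered member among the 11 members it calls. In the gamma array the most abundant member was Pcdhga12, at 1045, 1062 and 1302 against 1077, 1027 and 1172. Its locus spans 52514 bases where the other gamma genes span at most 2634, and it ends where the gamma loci end (30660582). Its counts may therefore include exons shared by the gamma array, which was not tested.

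Summed per array, the alpha genes gave 5446, 5363 and 5722 in controls and 4959, 4652 and 5203 with picrotoxin, mostly from Pcdhac1. The beta genes gave 2245, 2084 and 2283 against 1940.2, 1772 and 1993, and the gamma genes 2603, 2674 and 3119 against 2525, 2335 and 2820.2. The alpha and beta sums did not overlap between arms, and the gamma sums did. The picrotoxin means were 0.896, 0.863 and 0.915 times the control means; the sums were not tested.

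**Figure D4:**
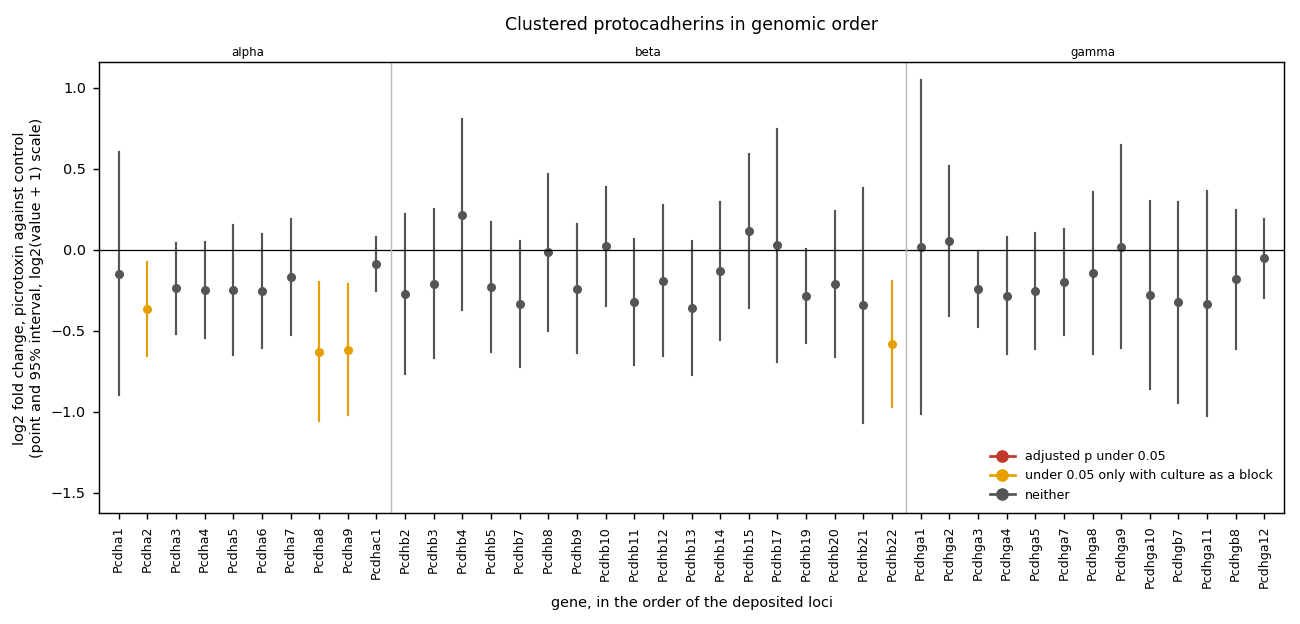
Log2 fold change of picrotoxin against control (points) with its 95% interval (lines) for the 41 clustered protocadherins in genomic order; no gene has an adjusted p under 0.05, and orange marks the 4 that pass with culture as a block. Points lie below 0 for 34 of 41 genes, and most intervals include 0.

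Some members differed between cultures in the same way in both arms. A limma F test over the 3 cultures, with arm as a covariate and chosen after the values were seen, called 12 of 41 clustered members and 29 of all 71 at an adjusted p under 0.05, where 20.7% of all genes were called. Outside the clusters it called 17 of 30, a larger share than among the clustered members. The lowest adjusted p of the limma F test there were those of Pcdh11x (0.000507), Cdh13 (0.000867) and Cdh6 (0.00134). By array the F test called 1 of 10 alpha, 6 of 18 beta and 5 of 13 gamma genes.

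Pcdhga1 was the clearest of these. It was at 55.5, 54.8 and 145 in control cultures 3, 10 and 20 and at 57.4, 51.2 and 157 in the picrotoxin libraries of the same numbers. Both libraries of culture 20 were far above the other 4, with a mean of 151 against 56.4 in culture 3 (limma F test, adjusted p = 4.9e-05), while the log2 fold change between arms was 0.02. Its neighbour Pcdhga2 went the other way, at 221, 251 and 149 against 221, 248 and 169, lowest in culture 20 in both arms (limma F test, adjusted p = 0.00463).

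In the beta array Pcdhb17 was at 53.5, 43.1 and 85.8 in controls and at 64.2, 38.6 and 84.7 with picrotoxin, highest in culture 20 of both arms. Pcdhb5 (297, 295 and 225 against 243, 279.8 and 179) and Pcdhb9 (319, 292 and 224 against 230.4, 286 and 191) were lowest there. The adjusted p of the limma F test was 0.00633, 0.0112 and 0.0220 for these 3. These 5 genes were picked after their values were seen. Over the 41 clustered members, deviations from the arm mean correlated across genes between libraries of the same number with Pearson's r of 0.57, 0.58 and 0.81 for cultures 3, 10 and 20, against 0.40, 0.39 and 0.53 over all 12605 genes. Over the 30 members outside the clusters r was 0.50, 0.78 and 0.82; genes are not independent, and libraries of a number may share more than their cells.

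**Figure D5:**
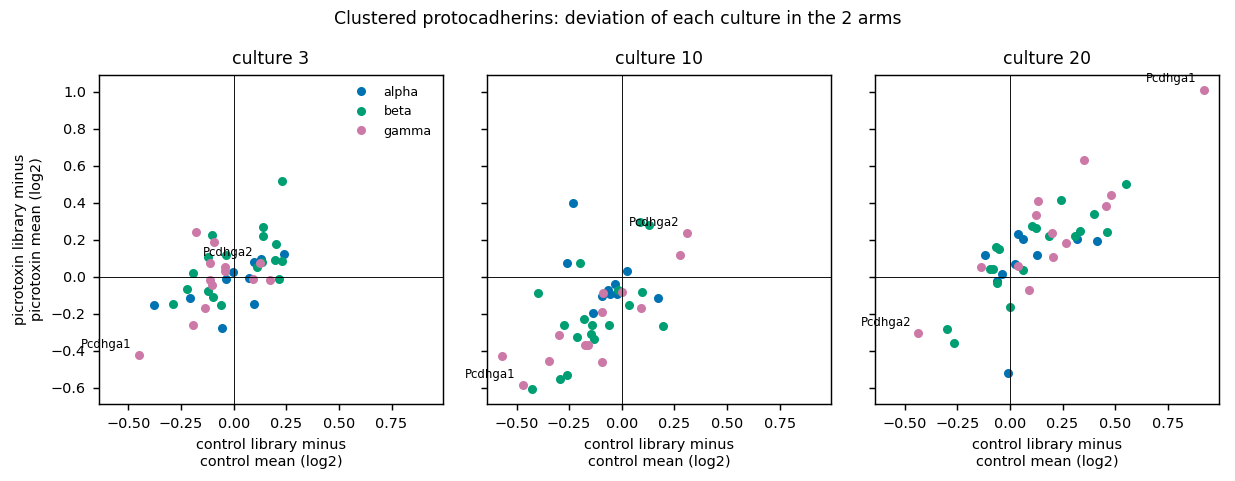
Deviation of each culture from its arm mean (log2) for the 41 clustered protocadherins, control on the x axis and picrotoxin on the y axis, coloured by array. Points of a culture lie along the rising diagonal (r 0.57, 0.58 and 0.81), and Pcdhga1 stands apart in culture 20.

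Lengths of 3′ UTRs were given in the authors' deposited table per gene model and arm, with replicates pooled, so they have no error. Of 44 member entries there 11 changed by 500 bases or more, against 4.505% of 10521 entries of all genes. Of the 11 in the authors' deposited table, 10 are the alpha genes, which share a 3′ UTR, 2400 bases in controls and 1560 with picrotoxin, so these are 1 measurement. The other is Pcdh11x, listed in the authors' deposited table at 78 and 4279 bases. Pcdh8 was listed there at 585 and 196 bases, and the gamma genes, which also share an end, at 1704 in both arms.

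Partners of the cadherins were taken from lists of 7 kinds, written with earlier results of these data known. Of 21 catenins and cadherin-bound adaptors 0 rose and 0 fell, and 4 had an unadjusted p under 0.05, as did 17.5% of all genes. Beta-catenin Ctnnb1 was at 10234, 10071 and 10218 in controls and at 12875, 13466 and 11440 with picrotoxin (log2 fold change 0.30, limma adjusted p = 0.0647, and 0.00189 with the block). Ctnna2, the alpha-catenin of neurons, had a log2 fold change of -0.16 (limma adjusted p = 0.319). Tjp1, a scaffold of cell junctions, had a log2 fold change of -0.40 (limma adjusted p = 0.0532, and 0.000670 with the block). With the block 1 of the 21 rose and 3 fell (19.05% either way, against 19.5% of all genes).

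Actin regulators that act under protocadherins held 3 falls and 0 rises among 17. Wasf1, the WAVE protein of neurons, was at 4266, 4630 and 4671 in controls and at 2550, 2588 and 2316 with picrotoxin (log2 fold change -0.86, limma adjusted p = 0.00175). The kinase Ptk2b, which clustered protocadherins bind and inhibit, was at 3711, 4131 and 4402 against 2321, 2746 and 2365 (log2 fold change -0.72, limma adjusted p = 0.00734). Cyfip1, a WAVE complex subunit, fell by 0.64 on the log2 scale (limma adjusted p = 0.0146). All picrotoxin values of these 3 genes were below the controls; with the block 6 of the 17 fell. Over all 7 lists, 2 of 93 genes rose and 4 fell, and 8 and 21 with the block, where 3.25% and 19.5% of all genes passed. Without control culture 10 these were 0 and 2, without picrotoxin culture 3 no gene rose (0), without control culture 20 or picrotoxin culture 10 it was 1, and without picrotoxin culture 20 they were 4 and 10.

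Of 8 nectins and nectin-like proteins Cadm3 fell, by 0.36 on the log2 scale (limma adjusted p = 0.0370), and 7 did not pass; with the block 2 of the 8 rose and 3 fell, Pvrl3 (-0.70, limma adjusted p = 1.2e-05 with the block) and Pvr (0.68, 0.00327) among them. Of 11 Fat, Dachsous and calsyntenin cadherins and their modifiers, Fjx1, a kinase that tunes the binding of Fat to Dachsous, rose from 327, 322 and 306 to 541, 531 and 461 (log2 fold change 0.68, limma adjusted p = 0.0122). With the block 2 of these 11 rose and 3 fell: Fjx1 and Fat3 (0.59), and Fat1 (-0.35), Clstn1 (-0.27) and Clstn2 (-0.56). Of 11 proteases that act on adhesion proteins Mmp9 rose, from 29.2, 12.6 and 18.0 to 52.5, 45.9 and 56.5 (log2 fold change 1.40, limma adjusted p = 0.0345), and with the block 2 of the 11 rose. The 13 planar polarity partners of the flamingo cadherins held 0 calls, and 3 had an unadjusted p under 0.05; the most abundant, Prickle2 and the receptor Fzd3, had log2 fold changes of -0.06 and -0.27. With the block 1 of the 13 rose and 4 fell, among them Fzd3 (limma adjusted p = 0.0136 with the block) and Daam2 (-1.27, 0.0149). Over all genes 9.45% rose and 10.1% fell with the block, and 17.5% had an unadjusted p under 0.05 without it. Daam2 was low, at 18.5, 22.5 and 18.0 in controls and at 3.89, 8.35 and 12.55 with picrotoxin. Its SE was 0.40 and its limma adjusted p without the block 0.123.

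The 12 genes of promoter choice in the clusters, among them CTCF and cohesin, also held 0 calls and 1 unadjusted p under 0.05, and all 12 had log2 fold changes below 0 (median -0.13). The cohesin subunits Rad21 and Smc1a, the most abundant, were at -0.08 and -0.13. Ctcf was at 870.0, 924 and 953 in controls and at 785, 705 and 804 with picrotoxin. No libraries overlapped (log2 fold change -0.26, limma adjusted p = 0.175, and 0.0145 with the block). With the block 0 of the 12 rose and 2 fell (16.67%, against 19.5% of all genes).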

How the data were processed

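PolyA libraries were made with standard Illumina protocols, per the labels' protocols, and were processed with tools that the submitters' processing notes list without a role: bedtools 2.22.1, STAR 2.3.1z12, Cuffnorm, Cuffdiff and Cufflinks 2.2.1. The genome build is not given in the sources used. The authors deposited a signal per gene and library, which from the values is a fragment count divided by a size factor: 99.8% to 99.9% of values in a library lay within 0.1 of a whole multiple of its step, which gives 11895727 to 13944778 fragments. The authors also deposited FPKM per arm, p-values and q-values, log2 fold changes and a test score, per the file headers, and UTR lengths per arm.

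Genes with a mean of 10 or more over the 6 libraries entered limma 3.58.1 (R 4.3.3, with its trend and robust options) on log2(value + 1), picrotoxin against control, in a two-sided test, p adjusted by Benjamini-Hochberg and called under 0.05. Fold changes are on that scale, which understates those of low genes. The replicate numbers were judged to pair the libraries, since deviations from the mean of each arm correlated by 0.40, 0.39 and 0.53 between same numbers and by at most 0.03 between others. The test was planned without a block, and a fit with the number as a block was an alternative, beside other pseudocounts, filters, scalings, limma options and the omission of each library. The script was tested on simulated data. Small RNA files were not used.

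Members and lists were chosen with earlier results of these data known. Named members are those called in either fit, the 2 most abundant of each class, and those without overlap at an absolute log2 fold change of 0.5 or more; in partner lists, up to 4 called genes or the 2 most abundant. Other genes were added after their values were seen. These were the partners Tjp1, Ctcf, Pvrl3, Pvr, Fat1, Fat3, Clstn1, Clstn2 and Daam2. The markers were Camk2a, Slc17a6, Tubb3, Neurod6, Nrgn, Slc32a1, Lhx6, Dcn and Lum. The members were Cdh6, Cdh7, Cdh22, Pcdh7, Pcdh17, Pcdhga1, Pcdhga2, Pcdhb17, Pcdhb5 and Pcdhb9.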

Additional observations from a re-analysis of the deposited data

How the results depend on the processing

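The calls depended most on the replicate block and on single libraries. With the replicate block 1191 genes were higher and 1268 lower (211 and 199 without), 9 and 12 members, and 8 and 21 of 93 pathway genes (2 and 4 without). Limma without trend and robust gave 88 and 68 genes, 1 and 1 members, and 1 and 2 pathway genes. With a mean of 50 or more 1 pathway gene was higher. Leaving out 1 library gave 36 to 381 genes higher and 31 to 516 lower, 0 to 3 and 0 to 10 members, and 0 to 4 and 2 to 10 pathway genes. Leaving out a number in both arms gave 0 to 470 genes higher and 0 to 574 lower, 0 to 5 and 0 to 10 members, and 0 to 5 and 0 to 14 pathway genes, with 0 either way without number 3. Pseudocounts, other filters and scalings kept the 2 and 3 members. No setting changed the sign of the 5 called members. Of the 41 named members, 13 that passed in neither fit changed sign under a setting: Cdh2 was 0.0264 after quantile scaling and 0.00285 by library totals, Pcdh20 0.00468 by library totals, and Pcdhb17 -0.0179 and Pcdhga1 -0.0188 after quantile scaling. Leaving out 1 library gave -0.114 to 0.0481 for Cdh2, -0.00404 to 0.305 for Cdh22, -0.225 to 0.43 for Cdh23, -0.00494 to 0.423 for Cdh6, -0.106 to 0.173 for Celsr3, -0.0928 to 0.678 for Pcdh15, -0.276 to 0.0607 for Pcdh17, -0.133 to 0.0641 for Pcdh20, -0.242 to 0.0849 for Pcdh7, -0.224 to 0.333 for Pcdhb17, -0.485 to 0.48 for Pcdhga1, -0.11 to 0.0488 for Pcdhga12 and -0.164 to 0.207 for Pcdhga2. Leaving out a number in both arms took Celsr3 to -0.019 without number 20, Pcdh20 to 0.030 without number 20, Pcdhb17 to -0.0869 without number 3, Pcdhga1 to -0.0253 without number 20 and Pcdhga2 to -0.0103 without number 20; the cause was not tested. The planned edgeR and DESeq2 fits were not run, since whole reads could not be recovered for every value. With 3 libraries per arm, a miss of the threshold does not show that a gene did not differ.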
